A study of Homo sapiens with 6 samples.

Results

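The E2F transcription factor family comprises the genes E2F1 to E2F8 and the genes of their dimerization partners, TFDP1 and TFDP2. These 10 genes were taken by name from the 34738 genes of the deposited expression table, and each name matched 1 row. Poly(A) RNA of the human thyroid cancer line KHM-5M, as the sample labels name it, was sequenced from cells transfected with an siRNA against GDF15, a stress-responsive cytokine (siGDF15, 3 libraries), and from control cells (NC, 3 libraries). The study's methods call the NC cells negative control cells and list a negative control siRNA, whereas the series description calls them a blank control. If the NC cells were not transfected, an effect of transfection itself cannot be told apart from that of reduced GDF15. The study lists 1 siRNA sequence against GDF15, so effects of that siRNA on other genes cannot be told apart from it either. A figure legend of the study names another thyroid line, TPC-1, for these data. The labels give no passage, time after transfection or siRNA dose.

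E2F proteins bind the promoters of genes needed for entry into S phase. E2F1, E2F2 and E2F3 are the activators, which the retinoblastoma protein holds inactive until cyclin-dependent kinases phosphorylate it. E2F4 and E2F5 repress in quiescent cells together with the pocket proteins p107 and p130, whereas E2F6 represses through Polycomb complexes without pocket proteins. E2F7 and E2F8 are atypical repressors that peak in S and G2 phase, switch E2F targets off again and bind DNA without a partner. All other members need TFDP1 or TFDP2 to bind DNA well. E2F1, E2F2, E2F7 and E2F8 are themselves known targets of E2F.

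RefSeq promoter windows of GRCh38.p14, from 250 bases before to 50 bases after a transcript start, were at hand for 8 members in 11 windows. E2F5 and E2F8 had none. The windows were searched on both strands for the 8 letters TTTCCCGC, TTTCGCGC, TTTGCCGC and TTTGGCGC, and for the same letters ending in G in place of C, an ending added after the sequences had been seen. The stretches below, all from 5′ to 3′ on the strand of the gene, are shown because they hold the matches nearest to the start of the 3 activators and of TFDP1. Capitals mark the matches. In E2F1 the first run of capitals is a match on the plus strand that overlaps one on the minus strand.

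E2F1, chr20:33686386-33686438, minus strand: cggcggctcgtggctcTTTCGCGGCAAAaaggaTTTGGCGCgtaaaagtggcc

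E2F2, chr1:23531252-23531306, minus strand: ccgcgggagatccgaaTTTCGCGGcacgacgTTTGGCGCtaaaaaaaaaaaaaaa

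E2F3, chr6:20401810-20401863, plus strand: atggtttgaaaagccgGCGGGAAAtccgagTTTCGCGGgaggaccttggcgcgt

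TFDP1, chr13:113584617-113584656, plus strand: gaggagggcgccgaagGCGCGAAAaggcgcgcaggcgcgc

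E2F1, E2F2 and E2F3 each held TTTCGCGG, and it began 37, 57 and 39 bases before the start. E2F1 and E2F2 also held TTTGGCGC, 20 and 42 bases before it. E2F6 held TTTCCCGG at 2 places, TFDP2 held TTTGGCGG on the minus strand after the start of 1 of its 3 windows, and no match was in the windows of E2F4 and E2F7 or in the second window of E2F3. With either ending, a match was present in 6 of the 11 windows of the family (54.5%), in 26 of 54 windows of 37 G1/S target genes of E2F (48.1%) and in 6.19% of all 35116 windows. With the ending C alone, the 3 shares were 36.4%, 40.7% and 3.31%. The letters TTTGAA of the CHR element, through which MuvB complexes bind later cell cycle genes, were in 3 windows of the family (27.3%), 1.85% of those of the G1/S targets and 15.2% of all windows. Of these 3 windows, 1 was of E2F3 and the others were alternative starts of TFDP2. A match is only a run of letters, and no binding was measured.

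Total counts of NC replicates 1, 2 and 3 came to 67754472, 68025163 and 67569576. Those of siGDF15 came to 67672774, 51738814 and 67793417, with replicate 2 the lowest. The deposited counts were worked out from coverage, and 1 read pair was taken as 4 counts because 4 was the most frequent small count. GDF15 was measured at 22.4, 19.3 and 23.1 FPKM (fragments counted for a gene, divided by transcript length and by library size) in NC and at 10.8, 10.5 and 10.7 FPKM in siGDF15, -0.92 on the log2 scale with a standard error (SE) of 0.079 (adjusted p = 2.4e-05, edgeR). Of the markers that define thyroid follicular cells, PAX8 was called as higher in siGDF15 (59.1 ± 5.33 against 79.4 ± 1.70 FPKM, SD, n = 3, log2 fold change 0.53), HHEX as lower (4.23 ± 0.294 against 2.67 ± 0.0181 FPKM, -0.56) and FOXE1 was not called (2.76 ± 0.208 against 2.83 ± 0.162 FPKM). By contrast, TG, SLC5A5 and NKX2-1 had means under 0.2 FPKM in each group and TSHR was not listed. Of the markers of other cell types, PTPRC and CD3E of leukocytes and all 3 endothelial markers had means under 0.2 FPKM, whereas CD68, found in macrophages and in lysosomes of other cells, was at 18.3 FPKM in NC and 16.9 FPKM in siGDF15, and the fibroblast markers COL1A1, COL1A2 and LUM lay between 5.50 and 6.32 FPKM. None of these 4 genes was called. DCN, the other fibroblast marker, was at 0.536 FPKM in NC and 0.591 FPKM in siGDF15, too low to be tested. Of the epithelial markers, KRT18 (92.6 FPKM in NC and 93.9 in siGDF15), KRT8 (15.8 and 18.0), KRT19 (13.2 and 14.4) and EPCAM (1.86 and 2.32) were not called. CDH1 was called as higher (0.897 and 1.28 FPKM, log2 fold change 0.61, adjusted p = 0.049, edgeR), with groups that overlapped in FPKM. The part of the marker genes in the results was not tested. A gene was tested if its mean over the 6 libraries was at least 1 FPKM, which left 11867 genes, and was called if its adjusted p was under 0.05 in edgeR's quasi-likelihood test. All 10 members were tested. E2F2, with a mean of 0.618 FPKM in siGDF15, passed the filter only through its level in NC.

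In siGDF15, 6 members were lower, 2 were higher and 2 were not called. The change did not follow the line between activators and repressors. The activators E2F1 and E2F2 and the atypical repressors E2F7 and E2F8 fell by more than 1 on the log2 scale, TFDP1 and E2F4 fell less, E2F5 and TFDP2 rose, and the activator E2F3 and the repressor E2F6 were not called. Changes were common in these libraries: 61.4% of all tested genes were called, 31.4% as lower and 30.0% as higher. A call together with a log2 fold change of -1 or less was given to 4 of the 10 members and to 4.78% of all tested genes. The median log2 fold change was -0.36 over the 10 members and 0.00 over all tested genes. The FPKM of the groups did not overlap for 9 of the 10 members and for 68.4% of all tested genes. With counts scaled by their total in place of TMM, 36.6% of all called genes were higher, against 48.9% with TMM. In bulk RNA, fewer cells in S phase and less E2F mRNA in each cell cannot be told apart.

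**Figure D1:**
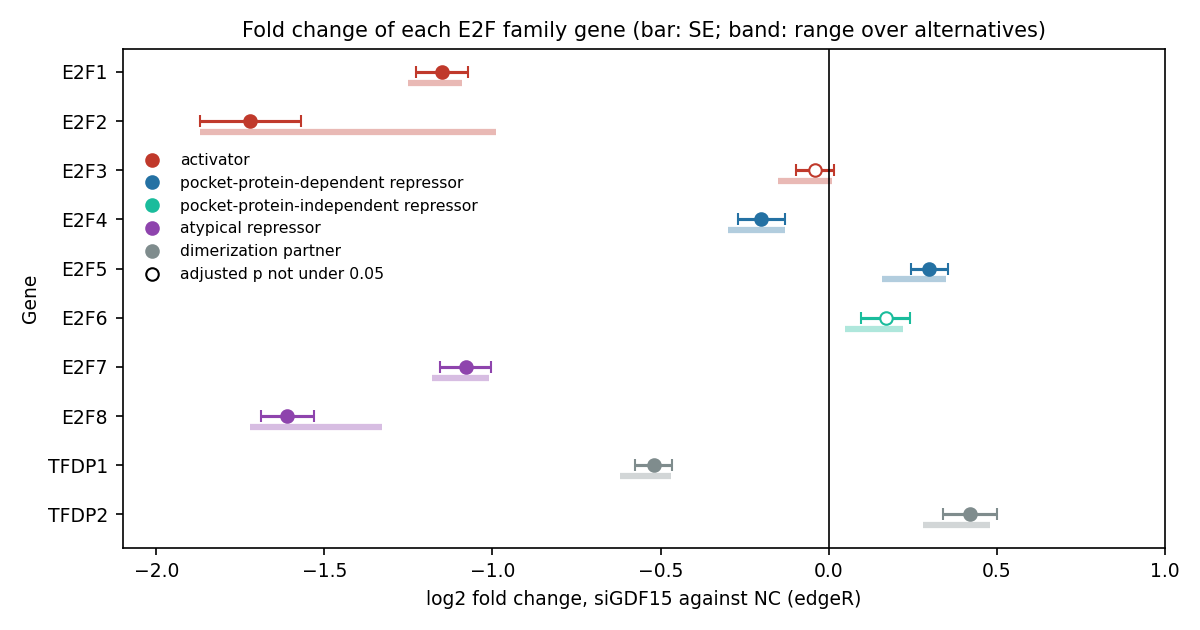
The log2 fold change of each member, siGDF15 against NC, with its standard error, coloured by role, and open where the adjusted p was not under 0.05. The pale band under each point spans the 16 alternative settings. E2F1, E2F2, E2F7 and E2F8 lie between -1.72 and -1.08, far to the left of E2F3 at -0.04.

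Among the activators, E2F1 (ENSG00000101412, chromosome 20 from 33675477 to 33686385, minus strand), which drives S phase entry and in excess also apoptosis, was at 12.5, 13 and 14.2 FPKM in NC and at 5.97, 5.35 and 5.27 FPKM in siGDF15. All 3 siGDF15 libraries lay below all 3 NC libraries. The log2 fold change of E2F1 was -1.15 (SE 0.078, adjusted p = 6.4e-06). E2F2 (ENSG00000007968, chromosome 1 from 23506438 to 23531233, minus strand), whose role overlaps with that of E2F1, was the least abundant member, at 2.16, 2.15 and 2.31 FPKM in NC and 0.739, 0.600 and 0.515 FPKM in siGDF15. Its log2 fold change of -1.72 (SE 0.15, adjusted p = 2.1e-05) was the largest of the family in the edgeR fit and had the largest error, and it differed from that of E2F8 by less than that error. On the log2(FPKM + 1) scale E2F8 fell more (-1.33 against -0.99). Only 48 to 76 read pairs stood behind each siGDF15 value of E2F2, against 220 to 236 in NC.

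E2F3 (ENSG00000112242, chromosome 6 from 20401879 to 20493714, plus strand), which shares the activator role, was at 11, 10.7 and 10.9 FPKM in NC and 10.3, 9.10 and 10.1 FPKM in siGDF15. Its siGDF15 libraries were all below the NC libraries in FPKM, by a margin that TMM scaling took away: the log2 fold change was -0.04 (SE 0.056, adjusted p = 0.55). It ranged from -0.15 to 0.01 over the alternatives, none of which called it. E2F3 was thus the activator with the highest mean level in siGDF15, 9.84 ± 0.643 FPKM (SD, n = 3) against 5.53 ± 0.386 FPKM (SD, n = 3) for E2F1, whereas in NC it stood below E2F1, at 10.9 ± 0.131 against 13.2 ± 0.890 FPKM (SD, n = 3). These values are for the whole gene, so transcripts from the starts of its first and second promoter windows were not told apart.

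The atypical repressors fell with E2F1 and E2F2. E2F7 (ENSG00000165891, chromosome 12 from 77021248 to 77065569, minus strand) was at 10.6, 11 and 9.86 FPKM in NC and 5.04, 4.59 and 4.24 FPKM in siGDF15, a log2 fold change of -1.08 (SE 0.076, adjusted p = 8.4e-06). E2F8 (ENSG00000129173, chromosome 11 from 19224063 to 19241620, minus strand), its closest relative, was at 6.56, 6.15 and 6.28 FPKM in NC and 2.08, 1.79 and 1.88 FPKM in siGDF15. Neither gene had a siGDF15 library within the range of NC. The log2 fold change of E2F8 was -1.61 (SE 0.078, adjusted p = 1.3e-06), the smallest adjusted p of the family, at rank 190 of the 11867 tested genes.

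The pocket-protein-dependent repressors moved little and in opposite directions. E2F4 (ENSG00000205250, chromosome 16 from 67192155 to 67198918, plus strand), the most abundant E2F gene, was at 22.2, 20.8 and 24.7 FPKM in NC and 18.3, 17.6 and 18.9 FPKM in siGDF15. Its log2 fold change was -0.20 (SE 0.070, adjusted p = 0.034), and the call was lost in 6 of 16 alternatives, in which the adjusted p lay between 0.066 and 0.12. Those were the median scaling and the fits without NC replicate 1 or 3 or any 1 siGDF15 library.

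E2F5 (ENSG00000133740, chromosome 8 from 85177154 to 85214518, plus strand) was at 4.42, 4.27 and 4.53 FPKM in NC and 5.07, 5.02 and 5.03 FPKM in siGDF15, so that the groups did not overlap. The rise of E2F5 was 0.30 on the log2 scale (SE 0.056, adjusted p = 0.0019). RBIS, a ribosome biogenesis gene on the opposite strand, shares 969 exon bases with E2F5 in GENCODE release 29 and was at 14.7 ± 0.648 FPKM in NC against 15.0 ± 0.524 in siGDF15 (SD over 3 libraries each), with a log2 fold change of 0.13 (adjusted p = 0.12, edgeR). Whether the authors counted by strand is not given in the sources used here, so the 2 genes may share reads.

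E2F6 (ENSG00000169016, chromosome 2 from 11444375 to 11466177, minus strand) was at 5.27, 4.89 and 4.87 FPKM in NC and 5.43, 4.77 and 5.50 FPKM in siGDF15. It was the only member whose groups overlapped. Its log2 fold change was 0.17 (SE 0.073, adjusted p = 0.078), and it was called as higher in 2 of 16 alternatives, the median scaling (adjusted p = 0.025) and the fit without siGDF15 replicate 2 (adjusted p = 0.045). The pseudogene E2F6P1 was at 1.73 ± 0.395 FPKM in NC against 1.94 ± 0.253 in siGDF15 (SD over 3 libraries each), and E2F6P2, E2F6P3, E2F3P2, TFDP1P2 and TFDP1P3 each had a mean under 0.4 FPKM in both groups. How reads were divided between E2F6 and its pseudogenes is not known. The intronic E2F3-IT1 had 4 counts in 1 library and 0 in the other 5, and the divergent E2F5-DT had 0, 1 and 0 counts in NC and 4, 9 and 6 in siGDF15, all under the 12 counts that a count of 0 allows (3 read pairs, for counting error only).

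The partner genes also parted. TFDP1 (ENSG00000198176, chromosome 13 from 113584721 to 113641473, plus strand), which encodes DP1, the main partner of the E2F proteins, was at 60.0, 59.6 and 65.9 FPKM in NC and 40.7, 40.4 and 39.0 FPKM in siGDF15. TFDP1 was the most abundant member in each library, and its log2 fold change was -0.52 (SE 0.055, adjusted p = 7.4e-05). TFDP2 (ENSG00000114126, chromosome 3 from 141944428 to 142149544, minus strand), which encodes DP2, was at 5.77, 5.84 and 4.71 FPKM in NC and 6.98, 6.74 and 6.59 FPKM in siGDF15. Its NC replicate 3 was low, and each siGDF15 library was above each NC library. The log2 fold change of TFDP2 was 0.42 (SE 0.080, adjusted p = 0.0020), and 0.33 without NC replicate 3.

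**Figure D2:**
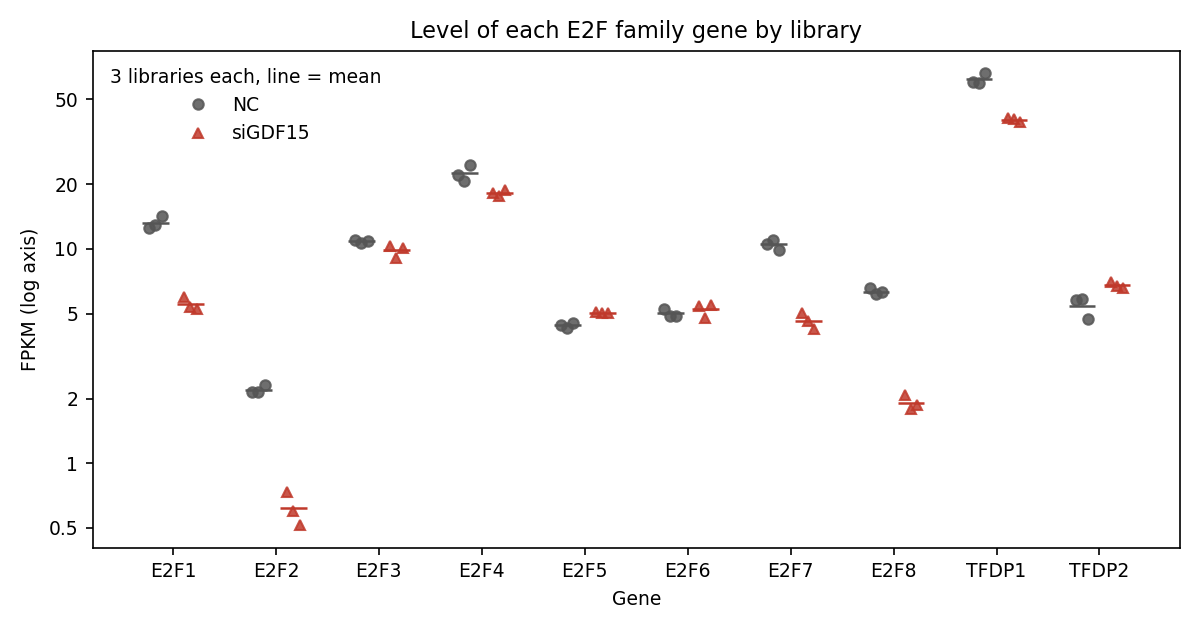
FPKM of the 10 members in each library on a log axis, with circles for the 3 NC libraries, triangles for the 3 siGDF15 libraries and a line at each mean. The symbols of the groups stand clear of each other for E2F1, E2F2, E2F7 and E2F8, and those of E2F6 overlap.

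Levels per length put TFDP1 first, E2F4 second and E2F2 last in each group. In NC the order between them was E2F1, E2F3, E2F7, E2F8, TFDP2, E2F6 and E2F5, and the libraries of E2F3 and E2F7, and of TFDP2 and E2F6, overlapped. In siGDF15 it was E2F3, TFDP2, E2F1, E2F6, E2F5, E2F7 and E2F8, where E2F1 overlapped E2F6, E2F6 overlapped E2F5 and E2F5 overlapped E2F7. E2F1 thus stood below E2F3 and TFDP2 in siGDF15 and above both in NC.

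Ratios within a library do not depend on its scaling, and 5 were compared between the groups. The FPKM ratio of E2F1 to E2F4 was 0.562, 0.624 and 0.575 in NC and 0.326, 0.303 and 0.279 in siGDF15, a difference of -0.95 on the log2 scale. That of E2F7 to E2F8 was 1.61, 1.80 and 1.57 in NC and 2.43, 2.56 and 2.25 in siGDF15, a difference of 0.54. The ratio of TFDP1 to TFDP2 was 10.4, 10.2 and 14.0 in NC and 5.83, 5.99 and 5.92 in siGDF15 (difference -0.95 in log2), and that of E2F4 to E2F5 differed by -0.50. The groups did not overlap for these 4 ratios (two-sided p = 0.1 by an exact permutation test, the lowest that 3 libraries against 3 allow, and adjusted p = 0.125 over the 5 ratios). The ratio of E2F1 to E2F7 was 1.18, 1.18 and 1.44 in NC and 1.18, 1.16 and 1.24 in siGDF15, a log2 difference of -0.07 that was within the spread of replicates (exact permutation test, two-sided p = 0.7).

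Summed over the classes, the activators had 26.3 ± 0.963 FPKM in NC against 16 ± 0.967 in siGDF15 (SD over 3 libraries each). The sum of E2F7 and E2F8 was 16.8 ± 0.602 FPKM in NC against 6.54 ± 0.518 in siGDF15 (SD over 3 libraries each). The sum of E2F4 and E2F5 was 27.0 ± 2.10 and 23.3 ± 0.619 FPKM (SD, n = 3). As a share of all E2F1 to E2F8 mRNA, the activators made up 34.3, 35.4 and 35.3% in NC and 32.1, 30.8 and 31.0% in siGDF15. E2F4 and E2F5 made up 35.7, 34.4 and 37.7% in NC and 44.2, 46.4 and 46.4% in siGDF15, and the atypical pair 23.0, 23.5 and 20.8% against 13.5, 13.1 and 11.9%. The share of the activators differed by -3.73 percentage points, against -9.61 for the atypical repressors and 9.78 for E2F4 and E2F5. TFDP1 and TFDP2 together stood at 0.895 ± 0.0138 (SD, n = 3) of the summed E2F FPKM in NC and at 0.917 ± 0.0415 (SD, n = 3) in siGDF15. The classes were set from known roles, and these shares carry no test.

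**Figure D3:**
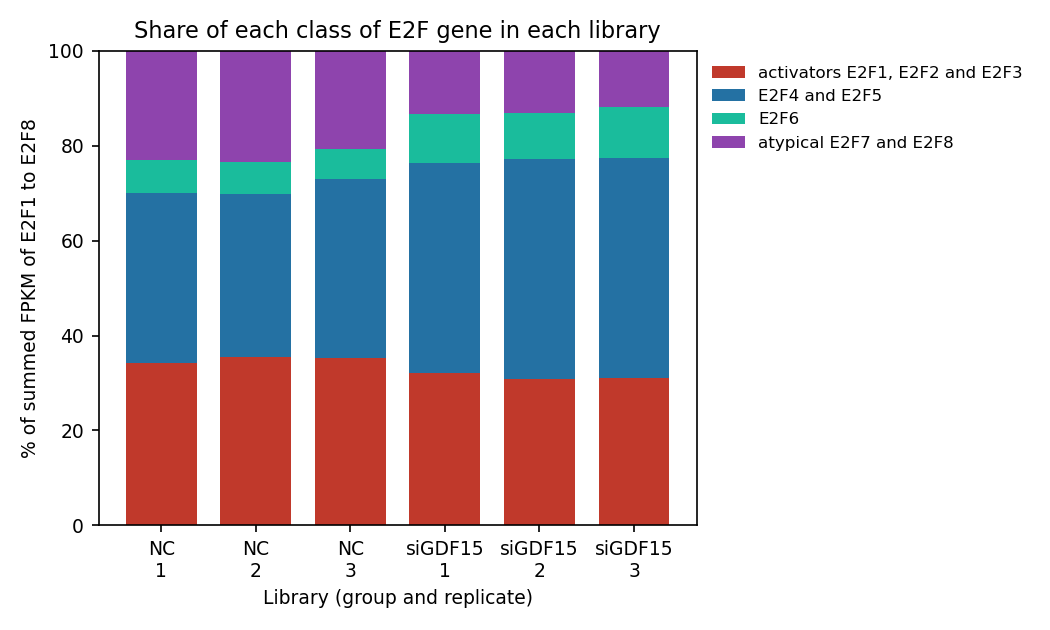
Stacked shares, in percent, of 4 classes in the summed FPKM of E2F1 to E2F8, with 1 bar for each library. The block of E2F4 and E2F5 widens from at most 37.7% in NC to at least 44.2% in siGDF15, and the block of E2F7 and E2F8 narrows.

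Genes around the family were read from lists chosen by textbook role. Of all tested genes, 61.4% were called, 31.4% as lower and 30.0% as higher. Of 44 G1/S target genes of E2F other than the members, all tested, 43 were called as lower and none as higher, with a median log2 fold change of -1.31. The 3 with the smallest adjusted p were FEN1, which trims Okazaki fragments (log2 fold change -1.42), RRM2, a subunit of ribonucleotide reductase (-1.89), and MCM10, a replication initiation factor (-1.75), with MYBL2 (-1.36) at the same adjusted p as MCM10. The 1 gene not called was CCNE1, the cyclin E1 gene and a classical E2F1 target, at 3.02, 3.36 and 3.74 FPKM in NC and at 2.35, 2.77 and 2.58 FPKM in siGDF15 (log2 fold change -0.29, adjusted p = 0.084, edgeR), whereas its paralog CCNE2 had a log2 fold change of -1.62. With scaling by total count and in both limma fits on FPKM, all 44 were called as lower, CCNE1 included. Many of these genes act in DNA replication, and the fall of such genes in these libraries was known when the list was chosen.

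All 3 pocket protein genes were called as lower, against 31.4% of all tested genes. RBL1, which encodes p107 and is itself an E2F target, had a log2 fold change of -1.58 (5.41 ± 0.436 FPKM against 1.68 ± 0.0991, SD, n = 3). RB1 had -0.39 and RBL2, which encodes p130, -0.30. RBL1 was the least abundant of the pocket protein genes in each group. Mean levels of RBL2 were 7.01 FPKM in NC and 5.3 FPKM in siGDF15, and those of RB1 were 14.0 and 9.93 FPKM. Of the 5 MuvB core genes, whose products join E2F4 and p130 in the DREAM repressor complex, 4 were called as lower, against the same 31.4%. These were LIN9 (-1.44), LIN52 (-1.03), LIN54 (-0.85) and RBBP4 (-0.36). LIN37 was not called (0.23, adjusted p = 0.13, edgeR), while without NC replicate 2 it was called as higher.

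Upstream of the pocket proteins, 6 of 8 tested G1 cyclin and kinase genes were called as lower and none as higher. Of all tested genes, 31.4% were called as lower and 30.0% as higher. Among the 6 were CDK2 (-1.38), CCNE2 and CDC25A (-1.22), and CCND2 was below the filter. The number lower was 4 with scaling to equal medians and 7 with scaling by total count, and 1 gene was higher without NC replicate 3. Of 7 CDK inhibitor genes, 4 were higher and 2 lower, which is 85.7% called, against 61.4% of all tested genes. The number higher was 3 with scaling by total count, in both limma fits and with no filter. CDKN2B, which encodes the CDK4 and CDK6 inhibitor p15, rose from 2.11 ± 0.166 FPKM to 9.09 ± 0.391 (SD, n = 3), which is 2.21 on the log2 scale, and CDKN2C, which encodes p18 and is a known E2F target, had -0.77. CDKN2A (0.40), CDKN1B (0.43) and CDKN1A (0.27) also rose, CDKN2D fell (-0.71) and CDKN1C was not called. CDKN1A had the largest adjusted p of the 4 called as higher (0.014, edgeR). The 4 tested parts of ubiquitin ligases that act on E2F proteins were all called as lower, against 31.4% of all tested genes. They were CCNF (-1.53), CDC20 (-1.41), SKP2 (-1.08) and FZR1 (-0.33).

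**Figure D4:**
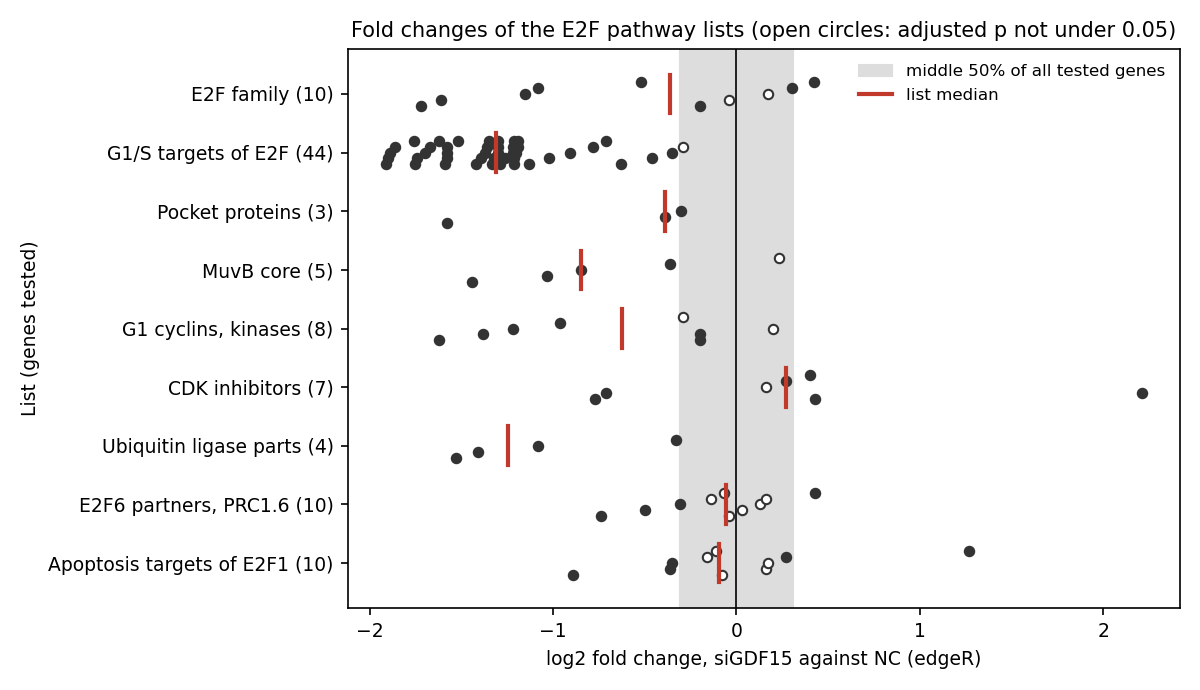
The log2 fold change of each tested gene in the E2F family and in 8 lists, with a red line at each list's median, open circles for genes not called, and a grey band from -0.31 to 0.31 for the middle of all tested genes. The G1/S targets lie to the left of the band except CCNE1, while the E2F6 partners and the apoptosis targets straddle it.

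Other lists were tied to single members. Of 12 apoptosis genes known as E2F1 targets, 10 were tested, 3 were lower, 2 higher and 5 not called, with a median of -0.10. That is 50.0% called, against 61.4% of all tested genes. With scaling by total count and in both limma fits, 6 were lower and 1 higher, and without siGDF15 replicate 2, 2 were lower and 1 higher. PMAIP1, which encodes the BH3-only protein NOXA, had a log2 fold change of -0.89, PPP1R13B -0.36 and APAF1 -0.35. TP53INP1 rose from 7.79, 8.32 and 5.17 FPKM in NC to 16.5, 15.3 and 15.9 FPKM in siGDF15, or by 1.27 on the log2 scale. CASP9 had 0.27 (adjusted p = 0.049, edgeR), with groups that overlapped in FPKM. With the replicate block, as with any library but NC replicate 2 left out, 1 gene of the list was called as higher in place of 2. TP73 had a mean under 0.02 FPKM in each group. Of the 10 genes of the Polycomb complex that E2F6 joins, 3 were lower (PCGF6 -0.74, WDR5 -0.50, CBX3 -0.31), 1 was higher (RING1 0.43) and 6 were not called. The share called was 40.0%, against 61.4% of all tested genes. With scaling by total count 5 of the 10 were lower, and with scaling to equal medians 2 were higher. None of the 10 germ-line genes that E2F6 is known to keep silent passed the filter. STAG3, the highest of the 6 that were listed, was at 0.277, 0.410 and 0.366 FPKM in NC and at 0.382, 0.356 and 0.351 FPKM in siGDF15.

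Over the 6 libraries, the profiles nearest to that of E2F1, by the root mean square difference of log2 CPM from the NC mean, were those of PCGF5 (0.034), PPP2R1B (0.043) and AADAT (0.044). Nearest to E2F8 were MAD2L1 (0.039), TPX2 (0.039) and NCAPG2 (0.043), which act in mitosis, with log2 fold changes of -1.66, -1.64 and -1.64. Genes are not independent replicates, and these genes share with E2F1 or E2F8 a like difference between the groups.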

How the data were processed

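Per the labels, all 6 libraries were made from poly(A) RNA of KHM-5M cells with a dUTP kit that keeps strand, and were sequenced as read pairs of 150 bases. The submitters' processing notes name fastp, HISAT2, StringTie, edgeR and GRCh38, without versions. The authors deposited FPKM values, which are scaled by transcript length and mapped fragments, and expected counts, which are whole numbers worked out from coverage and not normalized. The total count behind each library is given in the text. Intervals and floors cover counting error only.

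The counts were tested as deposited with edgeR 4.0.16 (R 4.3.3; quasi-likelihood test, TMM, two-sided, Benjamini-Hochberg adjustment over 11867 genes with a mean of at least 1 FPKM), siGDF15 against NC, without a replicate block. Adjusted p-values in the text are from that fit unless another test is named. Each SE is the size of the log2 fold change over the square root of F. Alternatives used DESeq2 1.42.0, limma 3.58.1 with pseudocounts of 1 and 0.1, other scalings, filters of 0.1 FPKM or none, counts divided by 4, the replicate block and each library left out. The fits were also run on simulated counts with few changed genes, evenly higher and lower, unlike these libraries where changes were common. That run therefore does not test the scaling used here. All 10 members were named by rule. In each list, genes with the smallest adjusted p, and the first in the minority direction, were named, and others that were called could be named too. The members and lists were chosen with earlier results of these data known, so lists are given as counts and medians with no set test. The study describes biological replicates.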

Additional observations from a re-analysis of the deposited data

How the results depend on the processing

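GDF15 and the members E2F1, E2F2, E2F7, E2F8, TFDP1, E2F5 and TFDP2 kept their direction and their call in all 16 alternatives, and the number of members called stayed between 5 and 6 lower and between 2 and 3 higher. The log2 fold change of E2F2 ranged from -1.87 to -0.99, the latter on the log2(FPKM + 1) scale, which understates changes of low genes. That of E2F3, never called, turned to 0.01 under scaling to equal medians and to 0.01 without siGDF15 replicate 2, and lay between -0.07 and 0.01 over the libraries left out. The difference in the E2F1 to E2F7 ratio turned to 0.02 without NC replicate 3 and stayed between -0.12 and 0.02 over all libraries left out. With 1 library left out, that of E2F1 to E2F4 stayed between -1.01 and -0.90, and GDF15 between -1.0 and -0.86. Scaling by total count moved the median of all tested genes to -0.10, and E2F1 to -1.25.

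Libraries with the same number did not deviate together (Pearson's r over genes of 0.0276, -0.0753 and 0.0458), and 1 of the 3 numbers had its highest correlation within the pair. Whether samples with the same number were prepared together is not given in the labels, and these values cannot settle it. With the replicate block, 3515 genes were lower and 3391 higher, against 3721 and 3565, E2F1 had -1.15 and E2F8 -1.62, and no call of a member changed. Depth limits E2F2 most.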
